A study of Mus musculus with 8 samples.

Results

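The chemokine genes Ccl2, Ccl5, Ccl7, Cxcl1, Cxcl5, Cxcl10, Cxcl12 and Cxcl16 and the gene of the macrophage growth factor Csf1 were followed through 4 conditions of NIH3T3 cells, a Hedgehog (Hh)-responsive line of mouse embryo fibroblasts. These 9 genes were chosen by name with their FPKM in these samples and its change with Hh ligand already known, out of 20190 genes for which every sample gave a value. For each gene, the deposited row whose mm9 locus overlapped the annotated gene best was used. All 9 were found, and 7 of them passed the limit for testing, an FPKM (fragments scaled to transcript length and library size) of 1 or more in 2 or more samples. Cxcl10 and Cxcl16 stayed below that limit.

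RNA-Seq was performed on 2 samples of each condition. Control and Hh-CM cells carried the empty pcDNA3.1 (Zeo+) vector, and Esrrb and Esrrb+Hh-CM cells carried the same vector with Esrrb, which encodes the nuclear receptor Estrogen related receptor β. All 4 groups had been transfected and selected with Zeocin. The established cells of each of 2 independent transfections were pooled, so none of the lines is a single clone. The methods do not make clear whether cells were pooled within each transfection or across them. Hh-CM and Esrrb+Hh-CM cells were given medium, diluted 100-fold, for 48 h. It came from human embryonic kidney (HEK293) cells that secreted the N-terminal part of Sonic Hedgehog. Control and Esrrb cells received equally diluted medium of HEK293 cells that lacked the transgene, so all 4 groups were exposed to HEK293 medium. The methods call the 2 samples of a group biological replicates and do not say whether they came from separate transfections. The p-values thus weigh differences against the spread between these samples and may not cover the spread between transfections.

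Chemokines are small secreted proteins that attract leukocytes through G protein-coupled receptors. CC chemokines such as Ccl2 act mainly on monocytes and lymphocytes, CXC chemokines such as Cxcl1 and Cxcl5 act on neutrophils through Cxcr2, and Cxcl12 retains hematopoietic progenitors in their niche through Cxcr4. Fibroblasts are a known source of several of these ligands, and many inflammatory chemokine genes are induced through NF-κB, whereas interferons induce Cxcl10. Csf1 maintains macrophages through its receptor Csf1r.

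On mm9, 3 of the CC chemokine genes and Cxcl16 lie on chromosome 11. Ccl2 (chr11:81849073-81850955, plus strand) and Ccl7 (chr11:81859214-81861027, plus strand) are neighbours 8.3 kb apart, and Ccl5 (chr11:83339280-83344020, minus strand) lies 1478.3 kb beyond Ccl7. Cxcl16 is at chr11:70267485-70273486 on the minus strand. Cxcl5 (chr5:91188325-91190651, plus strand) and Cxcl1 (chr5:91320267-91322141, plus strand) are 129.6 kb apart on chromosome 5, and Cxcl10 (chr5:92775664-92777915, minus strand) lies 1453.5 kb beyond Cxcl1. Cxcl12 is at chr6:117118553-117131385 on the plus strand and Csf1 at chr3:107543966-107563387 on the minus strand. The locus deposited for each gene overlapped its annotated span almost fully, with a lowest overlap of 0.9582 for Cxcl16 and of at least 0.9963 for the others (shared length over the length covered by either).

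The 250 bases before the transcription start are given for the 4 of the 9 genes that have an entry among the RefSeq promoters used here, because they show how the DNA before an inflammatory gene (Cxcl1), an interferon-induced gene (Cxcl10) and the 2 tested members that differed least between Control and Hh-CM cells (Cxcl12 and Csf1) is built. The sequences come from RefSeq on GRCm38.p6, each matched mm9 exactly at a single place, and they are written 5′ to 3′ on the strand of the gene. Capitals mark matches to an NF-κB (κB) motif, to the core of the interferon-stimulated response element and to the GC box GGGCGG, searched on both strands. The places in mm9 are chr5:91320021-91320270 (plus) for Cxcl1, chr5:92777916-92778165 (minus) for Cxcl10, chr6:117118303-117118552 (plus) for Cxcl12 and chr3:107563388-107563637 (minus) for Csf1.
Cxcl1: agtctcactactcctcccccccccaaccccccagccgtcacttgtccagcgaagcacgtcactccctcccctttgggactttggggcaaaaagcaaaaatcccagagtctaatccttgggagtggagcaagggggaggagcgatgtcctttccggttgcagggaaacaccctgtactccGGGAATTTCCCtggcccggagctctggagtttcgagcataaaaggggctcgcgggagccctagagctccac
Cxcl10: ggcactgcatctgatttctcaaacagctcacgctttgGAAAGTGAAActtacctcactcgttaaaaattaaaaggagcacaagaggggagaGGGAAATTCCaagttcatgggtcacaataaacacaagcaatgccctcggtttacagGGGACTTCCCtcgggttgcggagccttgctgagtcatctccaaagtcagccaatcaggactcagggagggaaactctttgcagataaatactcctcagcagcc
Cxcl12: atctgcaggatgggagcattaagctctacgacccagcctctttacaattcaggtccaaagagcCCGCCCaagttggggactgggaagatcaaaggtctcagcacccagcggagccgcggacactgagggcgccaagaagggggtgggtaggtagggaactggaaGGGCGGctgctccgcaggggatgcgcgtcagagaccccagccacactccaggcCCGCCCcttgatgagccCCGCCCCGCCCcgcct
Csf1: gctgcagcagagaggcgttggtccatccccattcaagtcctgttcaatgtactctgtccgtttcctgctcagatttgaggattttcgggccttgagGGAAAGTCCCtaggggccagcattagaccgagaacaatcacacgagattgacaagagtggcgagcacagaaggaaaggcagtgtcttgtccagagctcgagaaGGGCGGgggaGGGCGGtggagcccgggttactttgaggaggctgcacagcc

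Counting back from the start at -1, the Cxcl1 sequence held a κB match at -71 to -62 and a second, overlapping match on the opposite strand at -70 to -61. The Cxcl10 sequence held κB matches at -159 to -150 and at -103 to -94 and an interferon element core at -213 to -204. Before Csf1, a κB match lay on the opposite strand at -154 to -145, and GC boxes lay at -51 to -46 and -41 to -36. The Cxcl12 sequence had no κB match and 5 GC boxes, of which the last 2 overlapped by a single base. Among 32851 RefSeq promoters of the same length, 3.9% held a κB match, 2.98% an interferon element core and 32.7% a GC box. The motifs GACCACCCA (GLI factors), AAGGTCA (estrogen related receptors) and TATAAA, present in 0.225%, 4.08% and 12.4% of the promoters, were not found in these 4 windows. These matches are descriptions of letters, and no binding was measured.

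**Figure D1:**
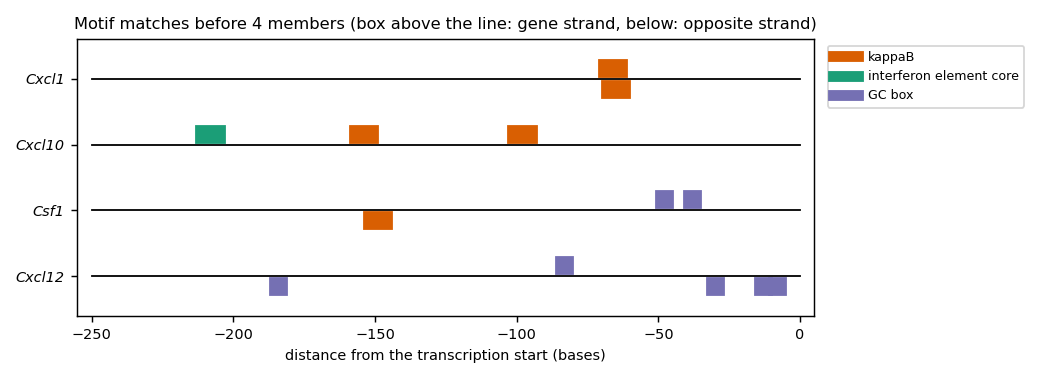
Motif matches in the 250 bases before the transcription start of Cxcl1, Cxcl10, Csf1 and Cxcl12. The x axis is the distance from the start in bases, and boxes above or below each line are matches on the strand of the gene or on the opposite strand. κB boxes are seen before Cxcl1, Cxcl10 and Csf1, and Cxcl12 has 5 GC boxes and no other match.

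Depth relative to Control replicate 1, estimated from the spacing of the lowest FPKM values, was lowest in Esrrb+Hh-CM replicate 2 (0.743) and highest in Hh-CM replicate 2 (1.54), and no read counts accompany the values. Gli1, the transcription factor that Hh signaling induces, was at 0.0217 and 0.0308 FPKM in Control and at 26.8 and 28.1 FPKM in Hh-CM cells, and Ptch1 and Thy1 also rose with Hh-CM in both lines. The Esrrb gene was at 0.0281 and 0.0203 FPKM in the Hh-CM samples and was listed at 0 in the other 6 samples, so these RNA values do not check the labels of the Esrrb vector. The study reported increased Esrrb protein in cells with the Esrrb vector by Western blot, which was not analysed here. Esrrb and Esrrb+Hh-CM below name the samples labelled so. Of 10 fibroblast markers, 9 had a value, none of these was below 1 FPKM in every sample, and their sum lay between 7900 and 9038 FPKM. The sums of 10 leukocyte markers lay between 4.34 and 5.98 FPKM in Control and between 6.52 and 8.78 FPKM in the other groups. Most of each sum came from Cd14, Cd68 and Lyz2, the 3 of these genes that were tested. Their means over the 8 samples were 3.94, 1.65 and 1.00 FPKM. Tyrobp and Cd3e were listed at 0, and Ptprc, which encodes the leukocyte antigen CD45, was at or below 0.265 FPKM. Endothelial markers summed to 0.103 to 0.188 FPKM without and 1.21 to 1.73 FPKM with Hh-CM, most of it from Tek, which rose with Hh-CM in both lines, and 6 epithelial markers summed to at most 0.092 FPKM. The part of these low levels in the chemokine values was not tested.

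The values that follow describe the 9 genes, which were chosen for them, and carry no test. Differences are on the log2(FPKM + 0.1) scale, from 1 limma fit of the 4 group means across 10278 genes, and each is given with its standard error (SE). In bulk RNA, fewer cells expressing a gene and less of its mRNA in each cell cannot be told apart.

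Ccl2, the main attractant of monocytes through Ccr2, was the member with the largest difference between Control and Hh-CM cells. Its FPKM was 386 and 371 in the Control samples, 92.6 and 84.8 in Hh-CM, 387.3 and 387.1 in Esrrb, and 108 and 102 in Esrrb+Hh-CM. In deposited FPKM, the groups with and without Hh-CM were far apart, and the 2 samples of each group lay close together. The intervals deposited with the vehicle values did not overlap within a group. They ran from 281 to 306 FPKM in Control replicate 1 and from 358 to 388 in Control replicate 2. In Esrrb they ran from 374 to 407 in replicate 1 and from 282 to 307 in replicate 2. The SD and SE below do not include this. The mean was 379 ± 10.1 in Control and 88.7 ± 5.45 in Hh-CM cells (SD, n = 2 each), a 4.27-fold lower level and a log2 difference of -2.09 (SE 0.0545). Between Esrrb (387 ± 0.184) and Esrrb+Hh-CM cells (105 ± 4.603; SD, n = 2 each) the level was 3.69-fold lower, a log2 difference of -1.89 (SE 0.0545). In vehicle, Control and Esrrb cells differed by 0.03 (SE 0.0545) on the log2 scale, less than the SE. Under Hh-CM, Ccl2 was higher by 0.24 (SE 0.0545) in Esrrb+Hh-CM than in Hh-CM cells, and the samples of these groups did not overlap.

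Ccl7, a monocyte attractant next to Ccl2 on the chromosome, shared this order at a lower level. Its FPKM was 152 and 153 in Control, 65.9 and 61.6 in Hh-CM, 160.0 and 157 in Esrrb and 67.6 and 64.4 in Esrrb+Hh-CM samples. Both Hh-CM groups lay below both vehicle groups, and the Hh-CM and Esrrb+Hh-CM samples overlapped. The level was 2.4-fold lower in Hh-CM than in Control cells (log2 difference -1.26, SE 0.0454) and 2.4-fold lower in Esrrb+Hh-CM than in Esrrb cells (log2 difference -1.26, SE 0.0454). Their difference, the interaction, was -0.003 (SE 0.0642) on the log2 scale and was the one nearest 0 among the 7 tested members. The Esrrb samples exceeded the Control samples by 0.05 (SE 0.0454).

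Ccl5, which attracts T cells and monocytes, had a different order and a much lower level. Its FPKM was 11.97 and 9.38 in Control, 2.91 and 2.84 in Hh-CM, 4.68 and 2.93 in Esrrb and 4.81 and 3.58 in Esrrb+Hh-CM samples. Only the Control samples stood above the rest, and the Esrrb and Esrrb+Hh-CM samples overlapped. Against Control (10.7 ± 1.83), the log2 difference was -1.85 for Hh-CM (2.87 ± 0.0495), -1.49 for Esrrb (3.81 ± 1.24) and -1.33 for Esrrb+Hh-CM cells (4.20 ± 0.869; SD, n = 2 each; SE 0.257 for each difference). All of these are set against the same Control samples. Between Esrrb and Esrrb+Hh-CM cells Ccl5 differed by 0.16 (SE 0.257), so the interaction was 2.01 (SE 0.363), the largest in size of the 7 members, and it was not past the threshold of the fit. The call against Esrrb was lost without Control replicate 1 (log2 difference -1.32) and without Esrrb replicate 2 (-1.16), and that against Esrrb+Hh-CM was lost without Control replicate 1 (-1.16) and without Esrrb+Hh-CM replicate 2 (-1.12).

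Cxcl5, a neutrophil attractant, was the most abundant of the 9 genes in vehicle. Its FPKM was 625 and 606 in Control, 213.3 and 213.0 in Hh-CM, 734 and 762 in Esrrb and 232 and 221 in Esrrb+Hh-CM samples. The 4 groups did not overlap, with Esrrb highest and Hh-CM lowest. The level was 2.89-fold lower in Hh-CM (213 ± 0.207) than in Control cells (615 ± 13.4; SD, n = 2 each), a log2 difference of -1.53 (SE 0.0390). It was 3.303-fold lower in Esrrb+Hh-CM (226 ± 7.89) than in Esrrb cells (748 ± 19.8; SD, n = 2 each), a log2 difference of -1.72 (SE 0.0390). Esrrb exceeded Control by 0.28 (SE 0.0390), which is several times the SE and below the log2 limit of 1.

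Cxcl1, the other ligand of Cxcr2 among the members, was lower with Hh-CM in both lines and lower with the Esrrb vector both in vehicle and under Hh-CM. Its FPKM was 113 and 115 in Control, 51.0 and 45.7 in Hh-CM, 84.6 and 83.7 in Esrrb and 36.3 and 32.3 in Esrrb+Hh-CM samples. The 4 groups did not overlap, with Control highest and Esrrb+Hh-CM lowest. With Hh-CM the level was 2.35-fold lower in the vector line (log2 difference -1.24, SE 0.0736) and 2.45-fold lower in the Esrrb line (-1.29, SE 0.0736). With the Esrrb vector it was lower by 0.44 in vehicle and by 0.50 under Hh-CM on the log2 scale (SE 0.0736 for each). The interaction was -0.06 (SE 0.104), less than its SE. In Esrrb+Hh-CM cells, Cxcl1 was at -1.73 (SE 0.0736) against Control. Cxcl5 and Cxcl1, which lie near each other on chromosome 5, thus took opposite positions between Control and Esrrb cells.

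Cxcl12, the ligand of Cxcr4, was among the most abundant genes of the series, with 98.74% of the tested genes below it in Control cells. Its FPKM was 581 and 587 in Control, 444 and 433 in Hh-CM, 689.8 and 692 in Esrrb and 419 and 394 in Esrrb+Hh-CM samples. The 4 groups did not overlap, and the differences were small beside those of Ccl2 or Cxcl5. It was 1.33-fold lower in Hh-CM than in Control cells (log2 difference -0.41, SE 0.0390) and 1.70-fold lower in Esrrb+Hh-CM than in Esrrb cells (-0.77, SE 0.0390). Esrrb was higher than Control by 0.24 and Esrrb+Hh-CM lower than Hh-CM by 0.11 on the log2 scale (SE 0.0390 for each). The interaction of -0.35 (SE 0.0551) was not past the threshold, and it passed in 4 of 18 alternatives, 1 of them without Esrrb+Hh-CM replicate 1 (-0.40).

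Csf1 had replicates that lay far apart in the Hh-CM and Esrrb groups. Its FPKM was 115 and 118 in Control, 86.1 and 117 in Hh-CM, 158 and 125 in Esrrb and 89.1 and 85.4 in Esrrb+Hh-CM samples. Esrrb+Hh-CM lay below Control and Esrrb, whereas Hh-CM overlapped both Control and Esrrb+Hh-CM. Means were 117 ± 2.51 for Control, 102 ± 22.1 for Hh-CM, 141 ± 23.2 for Esrrb and 87.3 ± 2.57 for Esrrb+Hh-CM cells (SD, n = 2 each). The log2 difference was -0.21 (SE 0.167) between Control and Hh-CM and -0.69 (SE 0.167) between Esrrb and Esrrb+Hh-CM cells. Without Hh-CM replicate 1 the first of these was 0.01, and without Hh-CM replicate 2 it was -0.44. None of the 5 differences reached the log2 limit, and none passed in any of 19 alternatives.

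Cxcl10, the interferon-induced ligand of Cxcr3, was expressed at a very low level. Its FPKM was 0.278 and 0.474 in Control, 0.188 and 0.0904 in Hh-CM, 0.899 and 1.00 in Esrrb and 0.514 and 0.375 in Esrrb+Hh-CM samples. The Esrrb samples were the highest and the Hh-CM samples the lowest, and Control and Esrrb+Hh-CM overlapped. The intervals deposited with the values are wide, from 0.0568 to 0.454 FPKM in Control replicate 1, from 0 to 0.184 in Hh-CM replicate 2 and from 0.400 to 1.33 in Esrrb replicate 1. In a fit with no FPKM limit, the log2 difference was 1.17 (SE 0.323) between Control and Esrrb and -0.99 (SE 0.323) between Control and Hh-CM cells. Cxcl16, a membrane-bound chemokine that Adam10 can release, lay between 0.0653 and 0.187 FPKM in the 8 samples, and its groups overlapped in every comparison. At this level no difference of Cxcl16 was detectable.

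**Figure D2:**
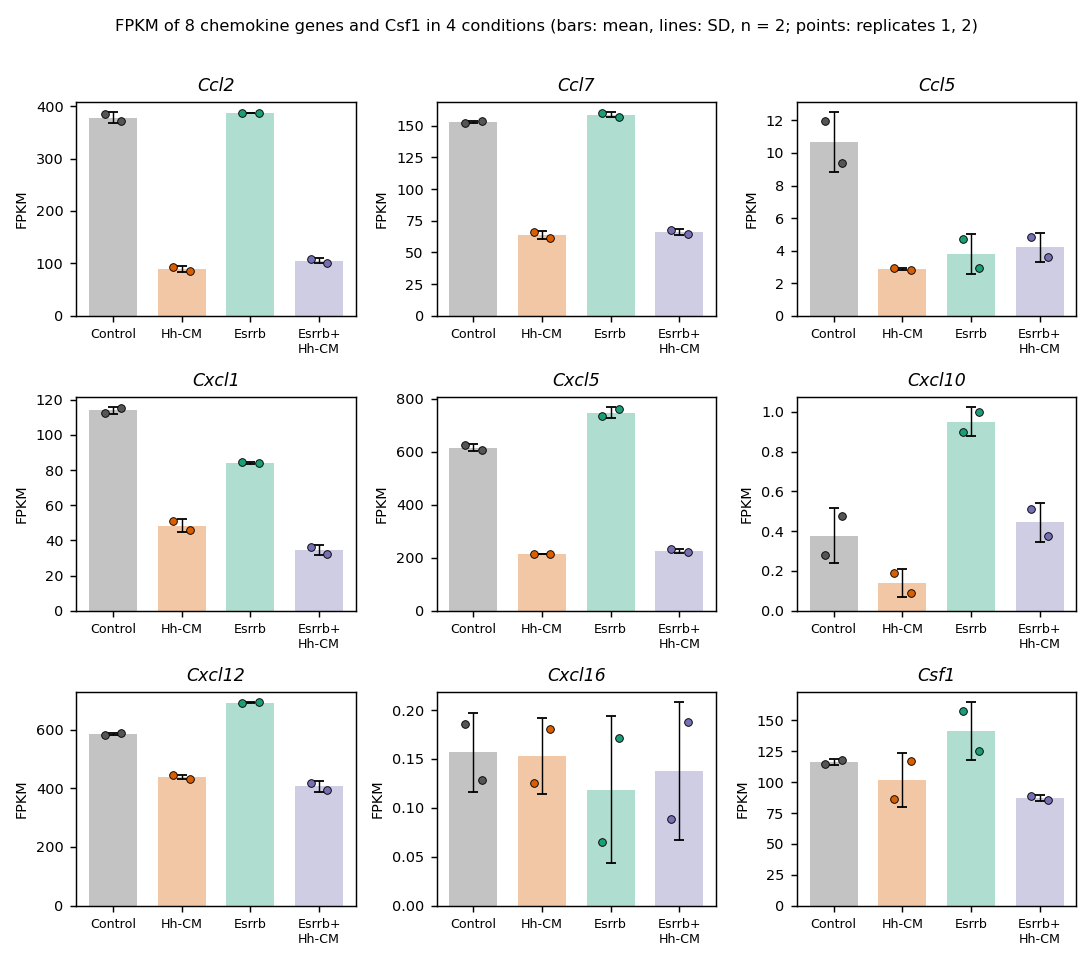
FPKM of the 9 genes in the 4 conditions, with a separate linear y axis for each gene that starts at 0. Bars are means, lines are SD with n = 2, and points are the samples. Ccl2, Ccl7, Cxcl1 and Cxcl5 are low in both groups with Hh-CM, Ccl5 is high only in Control (10.7 FPKM), and the samples of Csf1 spread in the Hh-CM and Esrrb groups.

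FPKM is scaled to transcript length, and the deposited levels of the 8 chemokine genes were set side by side and summed. The sum was 1869 and 1843 FPKM in Control, 870 and 841 in Hh-CM, 2061 and 2086 in Esrrb and 869 and 817 in Esrrb+Hh-CM samples. The groups with Hh-CM were below all samples without it, and the Hh-CM and Esrrb+Hh-CM samples overlapped. In Control cells the order by mean FPKM was Cxcl5, Cxcl12, Ccl2, Ccl7, Csf1, Cxcl1, Ccl5, Cxcl10 and Cxcl16. In this order Csf1 (117 ± 2.51) and Cxcl1 (114 ± 1.81) were the tested neighbours with the smallest ratio (SD, n = 2 each), and their samples, 115 and 118 against 113 and 115 FPKM, overlapped. The sums, the shares, the order and this pair hold for the deposited FPKM only. In Control replicate 1 that value was 1.23 times the midpoint of its deposited interval for Cxcl1, 1.30 times for Ccl7 and 0.992 times for Csf1. For Ccl2 it was 1.31 times the midpoint in Control replicate 1 and 0.995 times in Control replicate 2. Cxcl5, Cxcl12 and Ccl2 together made up 85.0% of the sum in Control and 88.1% in Esrrb cells, and 86.5% and 87.5% in the same lines under Hh-CM. The share of Cxcl12 was 31.5% in Control and 51.2% in Hh-CM cells, and that of Ccl2 was 20.4% and 10.4%. In both groups with Hh-CM the most abundant of these genes was Cxcl12, and in both vehicle groups it was Cxcl5.

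**Figure D3:**
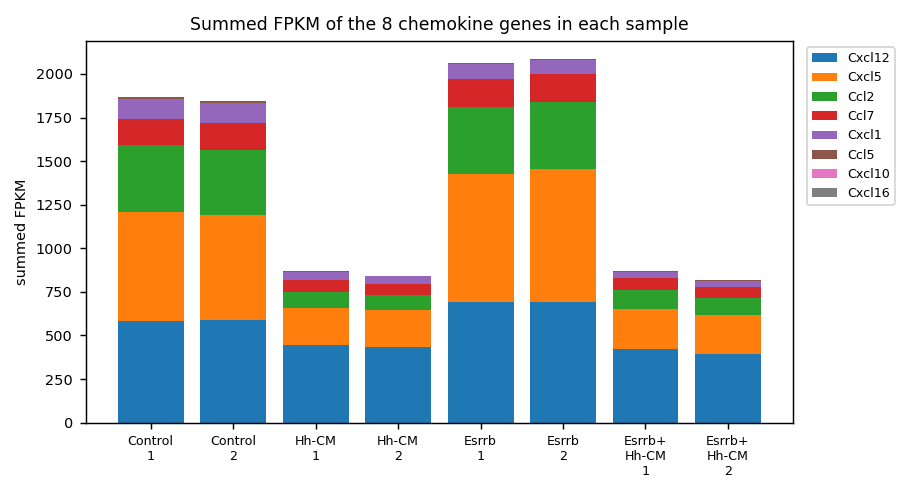
Summed FPKM of the 8 chemokine genes in each of the 8 samples, stacked by gene on a linear axis that starts at 0. The 4 samples with Hh-CM sum to between 817 and 870 FPKM and the 4 vehicle samples to between 1843 and 2086 FPKM.

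The 5 comparisons of the study describe how the levels differed with the medium, between the vector lines, and with both. A gene was called at a Benjamini-Hochberg adjusted p below 0.05 in limma and a log2 difference of at least 1 in size. Between Control and Hh-CM cells, 5 of the 7 tested members were past both thresholds and lower (Ccl2, Ccl5, Ccl7, Cxcl1 and Cxcl5), beside 0.798% of all tested genes that were lower, 1.97% that were higher and 2.76% in either direction. Between Esrrb and Esrrb+Hh-CM cells, 4 were past both and lower (Ccl2, Ccl7, Cxcl1 and Cxcl5), beside 1.35% of all tested genes that were lower, 3.47% that were higher and 4.83% in either direction. The members were chosen with these values known, so the counts are a description and nothing is read from them. The deposited FPKM lay outside its own deposited interval in 8 of 8 samples for Ccl7 and Cxcl1, in 6 for Ccl2 and in 4 for Cxcl5, and with the midpoint of the interval in its place these 4 genes were past both thresholds as well. The median difference was -1.26 over the 7 members in each of these comparisons, and 0.04 over all tested genes.

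Between Control and Esrrb cells only Ccl5 was past both thresholds among the members, beside 0.642% of tested genes that were lower, 0.837% that were higher and 1.48% in either direction. In the comparison of Control with Esrrb+Hh-CM cells, 5 members were past both and lower (Ccl2, Ccl5, Ccl7, Cxcl1 and Cxcl5), beside 1.62% of tested genes that were lower, 4.6% that were higher and 6.22% in either direction. Against the same Control samples, the log2 differences of the Hh-CM cells and of the Esrrb+Hh-CM cells were -2.09 and -1.85 for Ccl2, -1.26 and -1.21 for Ccl7, -1.53 and -1.44 for Cxcl5, and -1.24 and -1.73 for Cxcl1. Under Hh-CM, with the Esrrb vector set against the empty one, none of the 7 members was past both thresholds by limma beside 0.866% of tested genes that were lower, 1.11% that were higher and 1.98% in either direction. In that comparison 3 of the 7 members and 34.9% of all tested genes had an unadjusted p below 0.05. For the interaction, called at the adjusted p alone, the number was 0 of 7 by limma, beside 0.594% of tested genes below 0, 0.759% above 0 and 1.35% in either direction. An unadjusted p below 0.05 for the interaction was found for 4 of the 7 members and 1851 of the 10278 tested genes. The median of the 7 members was 0.05 between Control and Esrrb, 0.05 between the lines under Hh-CM and -0.06 for the interaction, and all tested genes had medians of 0.05, 0.05 and 0.00.

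**Figure D4:**
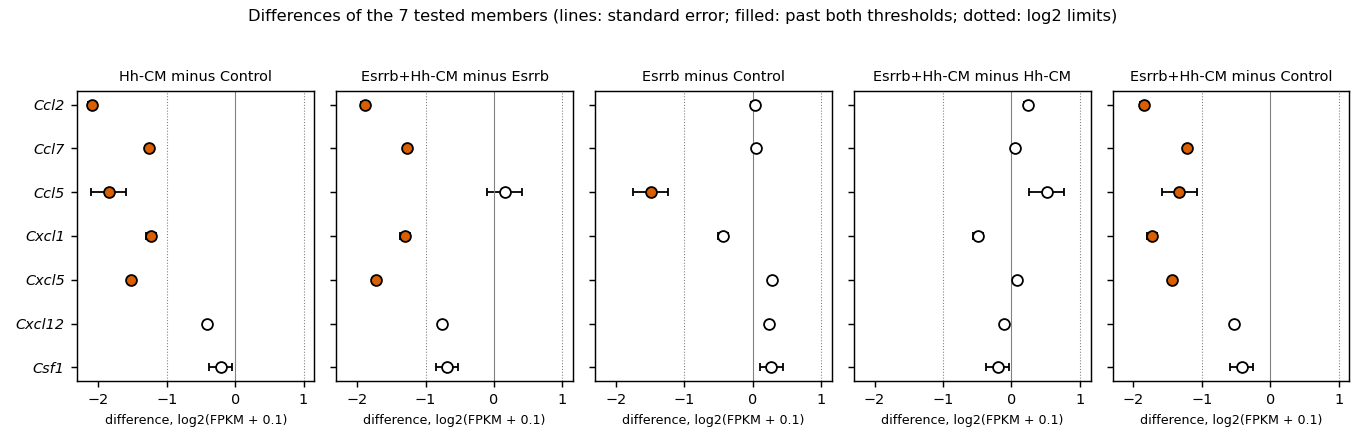
Log2 differences of the 7 tested members in the 5 comparisons, on the log2(FPKM + 0.1) scale. Points are estimates of the limma fit, lines are standard errors, filled points are past both thresholds and dotted lines mark log2 differences of -1 and 1. Ccl2, Ccl7, Cxcl1 and Cxcl5 lie below -1 in all 3 comparisons in which Hh-CM is added, and Ccl5 does not between Esrrb and Esrrb+Hh-CM.

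Other genes of the chemokine system came from lists that were also drawn up with results of these data known. Of 28 other chemokine genes, 24 had a value, 13 of these were listed at 0 in all samples, and 4 were tested. Ccl9, a CC chemokine that binds Ccr1, fell with Hh-CM, from 5.17 and 4.76 FPKM in Control to 1.25 and 1.00 in Hh-CM cells (log2 difference -2.05, SE 0.174, limma adjusted p = 0.00117). It was lower still in Esrrb+Hh-CM samples, at 0.589 and 0.510 FPKM, and fell by 2.11 from Esrrb cells on the log2 scale (SE 0.174, limma adjusted p = 0.000622). Ccl11, the eosinophil attractant eotaxin, fell between Esrrb (3.54 and 2.66 FPKM) and Esrrb+Hh-CM cells (0.757 and 1.35 FPKM), by 1.51 on the log2 scale (SE 0.308, limma adjusted p = 0.0188). This call of Ccl11 was lost without Esrrb replicate 1 (-1.30, limma adjusted p = 0.0942) and without Esrrb+Hh-CM replicate 1 (-1.12, limma adjusted p = 0.0553). Ccl8, a monocyte attractant, had 24.5 and 22.9 FPKM in Control and 13.7 and 16.4 in Hh-CM samples, a difference of -0.66 (SE 0.0990, limma adjusted p = 0.00839) that was below the log2 limit. Ccl25 had a log2 difference of 2.07 (SE 1.34, limma adjusted p = 0.353), as Control replicate 1 was listed at 0.

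The receptors of these ligands were mostly at or near 0. Of 24 receptor genes all had a value, 12 were listed at 0 in every sample, Cxcr4 among them, and 2 were tested. Csf1r was at most 0.140 FPKM and no untested receptor was above 0.296 FPKM. Ackr3, the scavenger receptor of Cxcl12, was the only receptor with a mean over all 8 samples above 1 FPKM, at 17.0 and 17.7 FPKM in Control and 24.5 and 22.8 in Hh-CM samples (log2 difference 0.45, SE 0.0829, limma adjusted p = 0.0173), below the log2 limit. Ccr7, which guides lymphocytes and dendritic cells to lymph nodes, rose from 0.247 and 0.240 FPKM in Control to 1.65 and 1.77 in Hh-CM samples (log2 difference 2.40, SE 0.410, limma adjusted p = 0.0133). It rose also between Esrrb (0.291 and 0.0725 FPKM) and Esrrb+Hh-CM samples (1.41 and 1.66 FPKM), by 2.65 (SE 0.410, limma adjusted p = 0.00678). The first of these calls of Ccr7 was lost without either Control or either Hh-CM sample, with limma adjusted p from 0.0596 to 0.0703.

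Genes that release, bind or trim chemokines, among them Adam10, Adam17, Mmp14 and the syndecans, numbered 9, of which 7 were tested. In each of the 5 comparisons limma called 0 of these 7, beside 1.48% to 6.22% of all tested genes called in either direction. With Hh-CM, 4 of the 7 had an unadjusted p below 0.05 in the vector line and 4 in the Esrrb line. The share of all tested genes with such a p was 32.1% and 35.6%. Mmp14, a membrane protease that cleaves Cxcl12, had 224 and 234 FPKM in Control and 175 and 187 in Hh-CM samples (log2 difference -0.34, SE 0.0432, limma adjusted p = 0.00474).

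Among 12 other cytokine genes that act on myeloid and blood cells, 9 were tested, and 2 rose between Control and Hh-CM cells, beside 1.97% of all tested genes that were higher. Il6, the acute-phase cytokine, rose from 1.91 and 1.26 to 5.91 and 5.04 FPKM (log2 difference 1.75, SE 0.225, limma adjusted p = 0.0049). In the Esrrb line Il6 rose from 2.16 and 2.83 to 8.74 and 7.70 FPKM (log2 difference 1.69, SE 0.225, limma adjusted p = 0.00378). Il33, an alarmin of the interleukin-1 family, rose from 22.2 and 22.3 FPKM in Control to 61.1 and 60.1 in Hh-CM samples (log2 difference 1.44, SE 0.0446, limma adjusted p = 3.84e-05). Kitl, the stem cell factor, rose from 33.6 and 33.8 FPKM in Control to 75.1 and 76.8 in Esrrb samples (log2 difference 1.17, SE 0.0359, limma adjusted p = 6.37e-05). Csf3, the granulocyte growth factor, rose between Control (0.323 and 0.0917 FPKM) and Esrrb+Hh-CM samples (0.625 and 1.16 FPKM), by 1.75 (SE 0.520, limma adjusted p = 0.0461), a call that 14 of 18 alternatives did not give, with a log2 difference from 0.64 to 2.32.

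Of 23 genes of the NF-κB pathway and its targets, 22 were tested. Limma called 1 of them lower with Hh-CM in the vector line and 3 lower in the Esrrb line, and none higher in either comparison, beside 0.798% and 1.35% of all tested genes that were lower. Tnfrsf1b, a receptor of tumor necrosis factor, fell from 10.1 and 9.19 FPKM in Control to 4.80 and 4.61 in Hh-CM samples (log2 difference -1.02, SE 0.0778, limma adjusted p = 0.000767). Between Esrrb (11.1 and 11.6 FPKM) and Esrrb+Hh-CM samples (5.09 and 4.67 FPKM) it fell by 1.20 (SE 0.0778, limma adjusted p = 0.000267). Nfkbiz, an inhibitor-like nuclear regulator of NF-κB, and Ptgs2, which encodes cyclooxygenase-2, fell by 1.00 (SE 0.0613, limma adjusted p = 0.00022) and fell by 1.22 (SE 0.122, limma adjusted p = 0.00127) with Hh-CM in the Esrrb line. Several of these lay at the log2 limit, so that Tnfrsf1b was not called between Control and Hh-CM cells without Control replicate 1 (-0.95) or Hh-CM replicate 2 (-0.99), and Nfkbiz not without Esrrb replicate 2 (-0.97) or Esrrb+Hh-CM replicate 1 (-0.96). Nfkbia, the feedback inhibitor of NF-κB, differed by -0.52 between Control and Hh-CM cells (SE 0.0651, limma adjusted p = 0.00456), below the limit. The list did not move in a single direction. In the same comparison Birc3 rose by 0.80 (SE 0.123, limma adjusted p = 0.00903) and Nfkb2 by 0.65 (SE 0.147, limma adjusted p = 0.0329), both below the limit. The other genes of the list with an adjusted p below 0.05 in this comparison fell. The median of the 22 genes was -0.08 with Hh-CM in the vector line and -0.19 in the Esrrb line, beside 0.04 over all tested genes.

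Of 24 interferon receptors, regulators and targets, 20 had a value and 17 were tested. Limma called 0 of the 17 with Hh-CM in either line or with the Esrrb vector in vehicle. Of all tested genes it called 2.76% with Hh-CM in the vector line, 4.83% in the Esrrb line and 1.48% with the Esrrb vector, in either direction. An unadjusted p below 0.05 was found for 7 with Hh-CM in the vector line, 8 in the Esrrb line and 9 with the Esrrb vector, beside 32.1%, 35.6% and 32.5% of all tested genes. Irf7, a regulator of interferon genes, rose from 0.717 and 0.546 FPKM in Control to 1.59 and 1.91 in Esrrb+Hh-CM samples (log2 difference 1.34, SE 0.268, limma adjusted p = 0.0125), and this call was lost without Control replicate 2 or Esrrb+Hh-CM replicate 2.

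**Figure D5:**
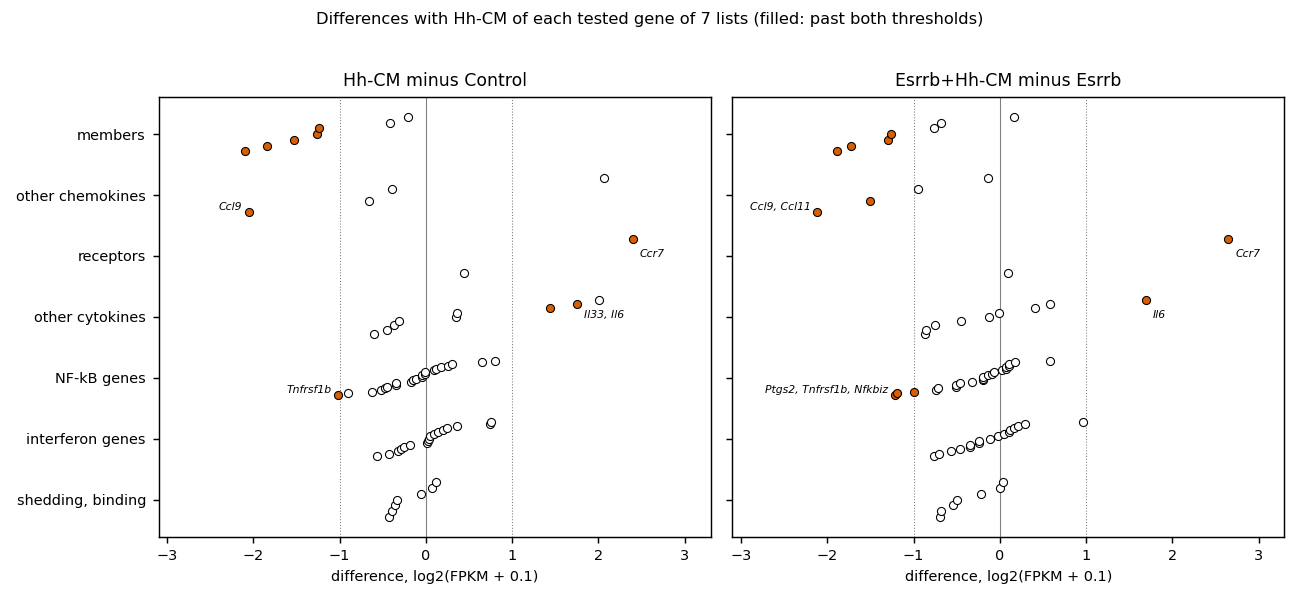
Log2 differences with Hh-CM in the vector line (left) and in the Esrrb line (right) of each tested gene of 7 lists, on the log2(FPKM + 0.1) scale. Points are genes, filled points are past both thresholds, dotted lines mark -1 and 1, and called genes outside the members are named. Ccl9 is low and Ccr7 and Il6 are high in both panels, and the interferon and shedding lists hold no filled point.

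The tested genes most like each member were found from the root mean square (RMS) distance of their log2(FPKM + 0.1), centred on the mean over the 8 samples. Cxcl5 was nearest to Thbs1 (0.102), Atf3 (0.104) and Il1rl1 (0.125), and Ccl2 to Thbs1 (0.155), Atf3 (0.197) and Cxcl5 (0.212). Thbs1 encodes the matrix protein thrombospondin-1 and Atf3 a stress-induced transcription factor. Ccl7 was nearest to Cpt1a (0.0693), which encodes the mitochondrial carnitine transferase, and to 1190002H23Rik (0.104), and then to Tnfrsf1b of the NF-κB list (0.109). Cxcl1 was nearest to Ankrd1 (0.138), a cardiac and mechanically induced ankyrin protein, Atp1b1 (0.140) and D4Bwg0951e (0.155). Cxcl12, which differed little between the groups, was nearest to F2r (0.0358), the thrombin receptor, followed by Nudt4 (0.0445) and Ppp1r3d (0.0474). Csf1 was nearest to Mxra8 (0.0904), Egln3 (0.0962) and Ppp2r5a (0.105). Ccl5 was nearest to Ercc8 (0.303), Pigk (0.375) and Rcc1 (0.406).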

How the data were processed

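RNA-Seq values of 8 NIH3T3 samples, 2 per condition, were used, with groups and replicate numbers from the labels. The libraries were stranded, sequenced on a shared lane and aligned to mm9. The authors assembled each sample with Cufflinks, and the deposited values are FPKM with an interval for each locus. The versions of these tools are not given in the sources used here. No read counts were used, so precision rests on the replicates and no interval for counting error was computed.

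Each locus was given to the annotated mm9 gene with which it shared the largest part of the length covered by either, at least 0.5. Loci with a failed estimate, 0 to 3 per sample, were left out. The 10278 genes that reached an FPKM of 1 in 2 or more samples were tested on log2(FPKM + 0.1) with limma 3.58.1 (lmFit, eBayes with trend) in R 4.3.3, with 4 group means, all 8 samples and Benjamini-Hochberg adjustment over all genes tested. This stands in for the Cuffdiff test of the study, which needs the aligned reads. The log2 scale with the added 0.1 understates differences of genes at low FPKM. The smallest p of an exact permutation test is 0.33 with groups of 2. The fit and the motif search were tested on simulated data. Tables and figures were made with pandas 2.3.3, matplotlib 3.10.9 and numpy 2.4.6 under Python 3.11.15.

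The members and all gene lists were chosen with earlier results of these data known. All 9 members were named, and of each list the genes called in any comparison and at most the 4 tested genes with the highest mean FPKM. Nfkbia, Ptprc, Csf1r, Cxcr4, Tyrobp and Cd3e were named for their roles after their values were seen. Birc3 and Nfkb2 were named after their values were seen, because they rose with Hh-CM in the vector line. List genes without a value in all 8 samples were not analysed here, and some named results are not reported here. The alternatives tried were another pseudocount (0.001 or 1), all genes or those that reached an FPKM of 1 throughout, rescaled FPKM, a replicate block, a fit of the compared groups alone, no variance trend, the sum of loci, an overlap of at least 0.8, each sample left out, and, chosen after seeing the data, the midpoint of the deposited interval.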

Additional observations from a re-analysis of the deposited data

Results flagged for a closer look

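In 3 of the 9 tested genes of the list of other cytokines, the difference with Hh-CM itself differed between the vector and the Esrrb line. This was called by the interaction term of the limma fit, beside 1.35% of all tested genes (139 of 10278). The list was drawn up with results of these data known, so the count is a description. Il33 was higher with Hh-CM by 1.44 on the log2 scale in the vector line and by 0.58 in the Esrrb line (interaction -0.86, SE 0.0631, limma adjusted p = 0.00601), and the interaction passed in 18 of 18 alternatives. Mif differed by -0.45 in the vector line and by 0.41 in the Esrrb line (interaction 0.86, SE 0.0664, limma adjusted p = 0.00659), also in 18 of 18 alternatives, with 425 and 423 FPKM in Control, 309 and 312 in Hh-CM, 332 and 337 in Esrrb and 464 and 423 in Esrrb+Hh-CM samples. Kitl differed by -0.31 in the vector line and by -0.75 in the Esrrb line (interaction -0.44, SE 0.0508, limma adjusted p = 0.0244), and passed in 9 of 18 alternatives; it was lost without either Control, either Esrrb or either Hh-CM sample, at values from -0.45 to -0.42.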

How the results depend on the processing

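Ccl2, Ccl7, Cxcl1 and Cxcl5 were past both thresholds in 19 of 19 alternatives in each of the 3 comparisons in which Hh-CM was added, Ccl5 in 19 of 19 between Control and Hh-CM, 15 of 19 between Control and Esrrb and 17 of 19 with both against Control. Of the log2 differences of members, 722 moved by less than the spread between replicates and 69 by more, and no called difference turned. Many of the 722 could not move. Another FPKM limit, no variance trend, an overlap of at least 0.8 and the sum of loci left each member's difference as it was. So did the replicate block, the compared groups alone and the loss of a sample outside the comparison. In these alternatives only the p-value behind a call could change. Of the counts of called genes per list, 936 stayed within 1.5 times and 75 did not. Members called between Control and Esrrb numbered 0 with no FPKM limit and with only the 2 groups in the fit (0 to 1 with each sample left out). For the interaction, 1 member, Cxcl12, was called with an overlap of 0.8, a pseudocount of 1 or rescaled FPKM (0 to 1 with each sample left out).

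Genes called numbered 284 between Control and Hh-CM (185 with an FPKM of 1 or more in all samples, 179 with a pseudocount of 1), 152 between Control and Esrrb (70 and 88), 203 between the lines under Hh-CM (109 and 125), 496 with Hh-CM in the Esrrb line and 639 with both. With each sample left out these were 270 to 288, 143 to 166, 192 to 232, 484 to 531 and 632 to 678. The interaction gave 139 genes, 64 with interval midpoints (chosen after seeing the data), 84 with no variance trend, 216 with rescaled FPKM and 61 to 171 with each sample left out, below 139 by over 1.5 times without Control replicate 1 (79), Esrrb replicate 1 (81), Esrrb replicate 2 (61) or Hh-CM replicate 2 (81). Rescaling moved the split of higher against lower calls from 114 and 89 to 93 and 98 between the lines under Hh-CM. The replicate block gave 55 genes for the interaction and between 145 and 632 in the comparisons. Deviations of samples with the same number correlated by -0.0389 to 0.0715 over all tested genes, so no pairing by number was seen in this measure. Whether samples with the same number shared a transfection was not tested. Between 7.8% and 11.0% of nonzero loci per sample had an FPKM outside its deposited interval. The cause was not tested.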
